A study of Mus musculus with 38 samples.

Results

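The 52 genes described here carry out the interferon response and antigen presentation. They were selected by symbol from the deposited RNA table, and all 52 were found among its 21705 genes. They comprise 6 transcription factors, 5 genes of RNA and DNA sensing, 3 genes of the ISG15 system, 14 antiviral effectors, 7 other interferon-stimulated genes, 7 genes of class I presentation, 5 genes of the immunoproteasome and its activator, and 5 genes of class II presentation. RNA levels were compared between cells grown with and without doxycycline (Dox) in 3 kidney tumour lines, and between tumours of 3 genotypes and normal kidney.

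Interferons bind receptors at the cell surface, and the JAK kinases on those receptors switch on STAT and IRF transcription factors. The complex of STAT2 and IRF9 with a further STAT protein binds the interferon-stimulated response element (ISRE) in front of antiviral genes, while interferon-gamma also acts through the gamma-activated sequence (GAS) and IRF1. Most epithelial cells use the same pathway to set how much class I antigen presentation machinery they make, whereas class II molecules are made mainly by B cells, macrophages and dendritic cells under the control of Ciita. Renal tubule cells can make both when interferon-gamma is present.

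The cells came from MYC, VM and VIM mice. MYC mice carry Ksp-rtTA and Tet-O-MYC, so that Dox switches on MYC in the renal tubule, where the Ksp promoter is active. VM mice carry in addition Vhl F/F and KspCre-ERT2, which deletes Vhl in the same cells after tamoxifen, and VIM mice also lack Ink4a/Arf in the germline, so that this deletion is present in every cell of the mouse. Each genotype is represented by 1 line, so genotype and line cannot be told apart. For each line, 4 libraries were made 24 h after plating in medium with Dox (2 µg per ml) and 4 after plating in medium that lacked it, and no line without the transgene was given Dox, so Dox itself and MYC cannot be told apart. The 9 tumour libraries (3 for each genotype) came from mice kept on Dox, and the MYC tumours came from 2 mice because replicates 2 and 3 share a mouse number. The 5 kidneys were wild type and vehicle treated, 2 with the title prefix B6 and 3 with the prefix KT, which the labels do not explain. The MYC line bears the number of the mouse that gave MYC tumour replicates 2 and 3, and the VM line, by its name in the methods, that of VM tumour replicate 2.

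The values are RSEM estimates that were scaled to a common upper quartile, which lay between 998.6 and 1000 units in every library. They are not divided by gene length, so levels are not compared between genes. Depth was 12.4 to 36.6 M estimated reads in the cells and 8.22 to 15.5 M in the tissues, and 3 reads, the floor for detection, correspond to 1.16 to 3.34 units in the cells and 2.8 to 5.65 units in the tissues. Vhl was at 10.3 to 14.9 units in VM cells labelled Dox and at 8.32 to 18.1 in VIM cells labelled Dox, against 433 to 461 in MYC cells, and at 40.2 to 79.9 in VM and 219 to 312 in VIM tumours against 612 to 772 in kidney. Cdkn2a (the Ink4a/Arf gene) averaged 30 in VIM cells against 3171 in MYC cells. The mouse Myc row was lower in the libraries labelled Dox, at 676 against 1831 units in MYC cells, 384 against 1364 in VM cells and 381 against 1479 in VIM cells. Reads of the transgene cannot be separated in this row, so the Dox state rests on the labels, and every direction given below is that of the libraries labelled Dox. Nolc1, a nucleolar gene that MYC commonly induces and that was picked after its values were seen, was at 7911 against 2821, 7815 against 1597 and 8020 against 1500 in the same order. The cells kept Pax8 (3707 to 3972 units in MYC cells without Dox) but had the tubule segment markers Slc34a1, Umod and Aqp2 at or under the floor in every cell library. Of the other segment markers, Lrp2 was at 3155 to 7484 units in the cells and Slc12a1 at 7.27 to 18.4 in VIM cells. Nothing in the labels says that the 4 libraries of a cell group were separate cultures, so p-values measure the spread between these libraries.

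The tests used limma, applied to log2(value + 1). A gene is called lower or higher where its Benjamini-Hochberg adjusted p over all genes tested was under 0.05 and its change exceeded 1 on the log2 scale, which is 2-fold. In MYC cells 37 of the 51 members tested were lower in the libraries labelled Dox, and 15% of the 15104 genes tested were lower. In VM cells 33 of 46 members were lower, against 18.9% of 14319 genes. In VIM cells 19 of 44 members were lower, against 16.6% of 13998 genes. The median log2 change of the members was −1.93 in MYC cells, −1.59 in VM cells (−1.34 with members at the floor set to their bound) and −0.85 in VIM cells (−0.80 at the bounds), where the medians of all genes tested were −0.13, −0.26 and −0.15. Rescaling by trimmed means moved those medians of all genes to −0.02, −0.07 and −0.02, and 32, 29 and 17 members then remained lower. Of the members, 0 were higher in MYC cells and 0 in VM cells by limma, where 4.49% and 5.92% of all genes were higher, while 1 and 4 members were at an unadjusted p under 0.05 and a limma voom fit called 0 in both lines. In VIM cells 1 member, Tap1, was higher, where 7.67% of all genes were. Over the 43 members tested in each line, 18 were lower in all 3, against 8.23% of the 13378 genes tested in each line.

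**Figure D1:**
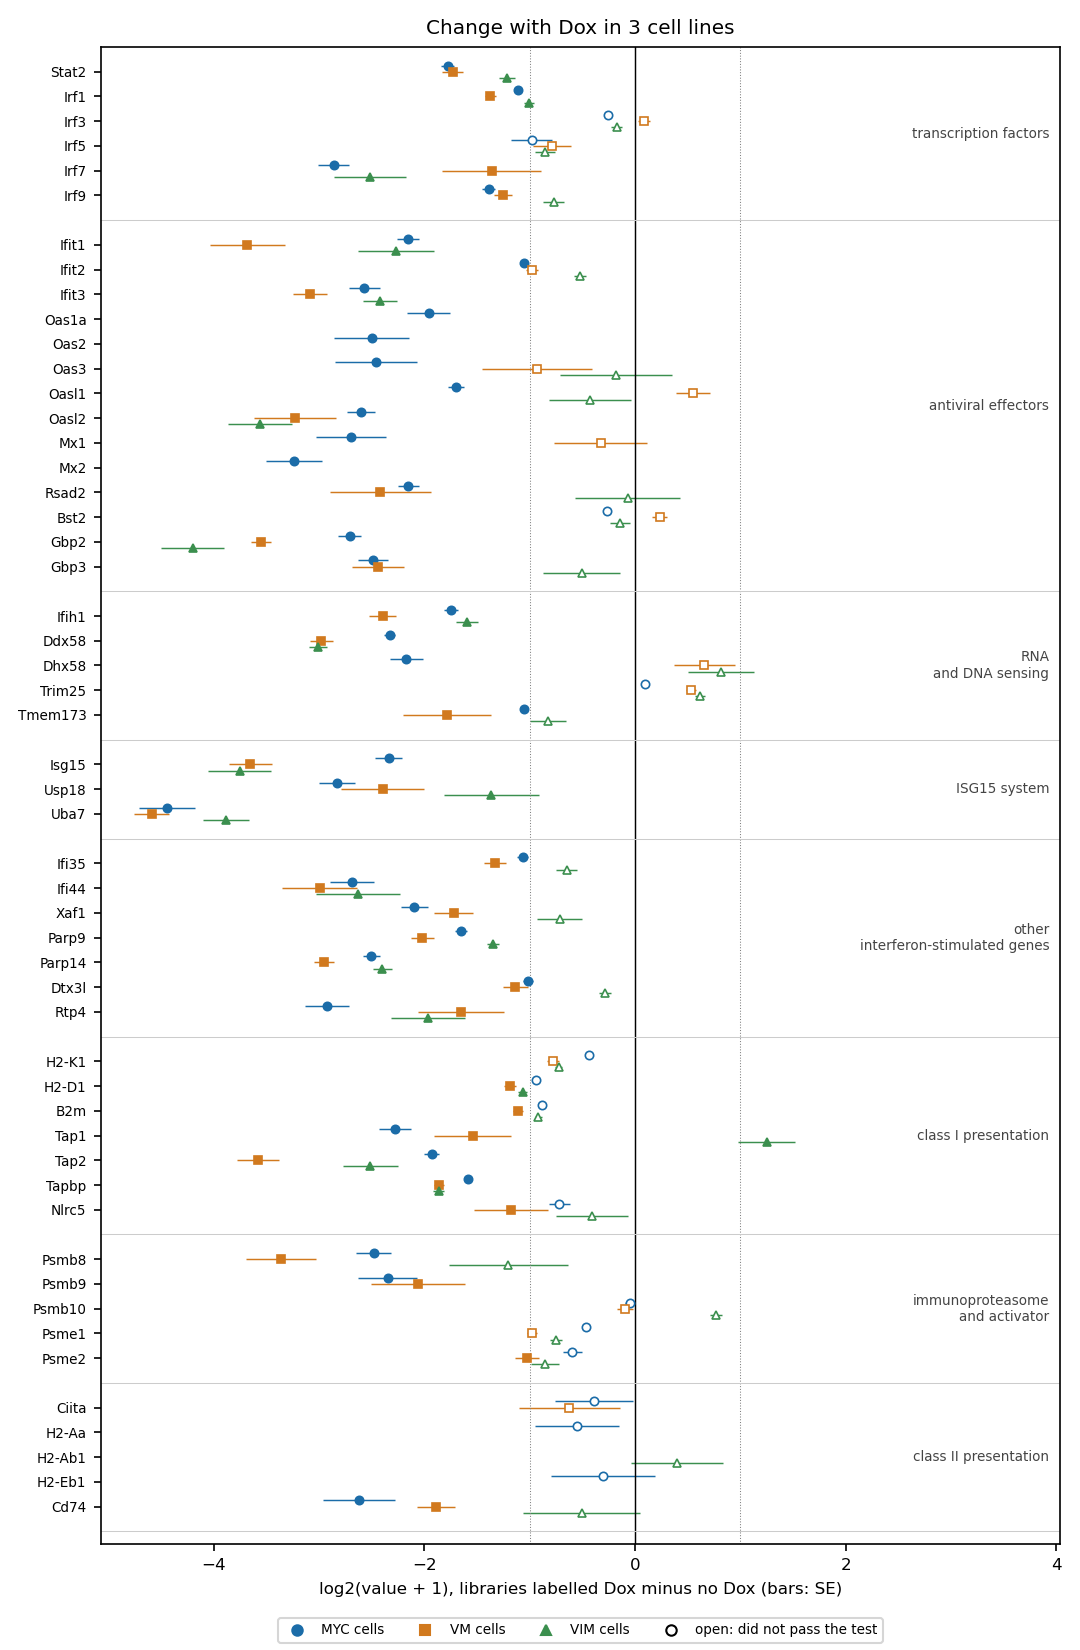
Change of each member with Dox in the 3 lines, on the x axis as log2(value + 1) in the libraries labelled Dox minus that without Dox, with genes grouped by role on the y axis. Points are the fitted changes in MYC (circles), VM (squares) and VIM cells (triangles), bars are standard errors, open points did not pass the test, and untested members have no point. Most filled points lie left of −1, and Tap1 in VIM cells at 1.25 is the filled point on the right.

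The ISG15 system was lower with Dox in every line, since each of its 3 genes passed in all 3. Isg15 encodes a ubiquitin-like protein that is attached to other proteins in the interferon response, Uba7 its activating enzyme, and Usp18 the protease that removes it and damps receptor signalling. Uba7 read 44, 61.2, 55.6 and 53.3 units in the 4 MYC libraries without Dox and 2.24, 2.72, 1.08 and 0.524 in those labelled Dox, a log2 change of −4.44 (SE 0.26, adjusted p = 2.02e-11). In VM cells Uba7 read 181, 193, 191 and 201 without Dox and 5.91, 7.66, 5.94 and 8.77 with it, a change of −4.59 (SE 0.16, adjusted p = 4.67e-14). In VIM cells it read 141, 120.4, 114 and 124 without Dox and 8.33, 6.24, 12.5 and 4.85 with it, a change of −3.88 (SE 0.22, adjusted p = 5.34e-13). The groups did not overlap in any line, and Uba7 had the largest fitted change among the members in MYC and VM cells. Isg15 read 331, 403, 439 and 422 in MYC cells without Dox and 85.5, 81.6, 54.7 and 94.9 with it, a change of −2.34 (SE 0.13, adjusted p = 7.07e-12). In VM cells Isg15 read 55.6, 71.7, 54.3 and 52.4 without Dox and 3.69, 3.4, 4.25 and 3.51 with it, a change of −3.65 (SE 0.21, adjusted p = 2.18e-11). In VIM cells it read 23.7, 46.8, 36.7 and 28.2 without Dox and was at or under 3 reads in all 4 libraries labelled Dox, which is at least 14-fold lower when that floor is used for each library.

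Usp18 was scarce outside MYC cells. It read 113, 163, 155 and 131 units in MYC cells without Dox and 25.7, 13.1, 17.3 and 21 with it, a change of −2.83 (SE 0.17, adjusted p = 3.52e-11). It read 5.29, 11.2, 6.2 and 5.32 in VM cells without Dox and was at or under the floor in all 4 libraries with it, at least 2.67-fold lower. In VIM cells the libraries without Dox held only 3.8, 1.11, 3.06 and 3.32 units, 2 of them also at or under the floor, so that call rests on very few reads.

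The cytoplasmic sensors of viral RNA, Ddx58 (RIG-I) and Ifih1 (MDA5), were lower in all 3 lines. Ddx58 read 1088, 1209, 1183 and 1187 units in MYC cells without Dox and 253, 221, 212 and 242 with it, a change of −2.33 (SE 0.052, adjusted p = 3.56e-17). It read 648, 722, 612 and 611 in VM cells without Dox and 62.1, 86, 90.8 and 89.5 with it, a change of −2.98 (SE 0.11, adjusted p = 6.2e-14). In VIM cells Ddx58 read 503, 474, 458 and 478 without Dox and 52.8, 62.4, 58.4 and 61.4 with it, a change of −3.01 (SE 0.085, adjusted p = 3.73e-18). Every library labelled Dox lay below every library without Dox of its line. Ifih1 averaged 344 ± 8.87 (SD, n = 4) without Dox and 102 ± 9.1 with it in MYC cells, and its change was −1.75 (SE 0.069) there, −2.40 (SE 0.13) in VM cells and −1.59 (SE 0.11) in VIM cells. Dhx58 (LGP2), a relative of both that lacks signalling domains, passed in MYC cells alone, where it read 61, 72.4, 77 and 66.9 without Dox and 16.2, 12.9, 11.9 and 17.8 with it, and in VM cells it read 3.53, 8.92, 9.3 and 6.84 without and 10.3, 12.8, 9.34 and 13 with Dox. Tmem173 (STING), the adaptor of the DNA sensing pathway, was lower in MYC cells, from 988, 1023, 1050 and 1050 to 513, 494, 480 and 496 units, which is −1.05 (SE 0.034, adjusted p = 4.14e-15) on the log2 scale. It was nearly silent in VM cells, at 2.65 to 6.98 units without Dox and at or under the floor with it, and in VIM cells its change of −0.83 (SE 0.17) did not pass. Trim25, the ubiquitin ligase that activates RIG-I, did not pass in any line, with changes of 0.09 (SE 0.033), 0.53 (SE 0.046) and 0.61 (SE 0.048) in MYC, VM and VIM cells.

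Among the 14 antiviral effectors 13 were lower in MYC cells, 6 of 11 tested in VM cells and 4 of 10 tested in VIM cells. Gbp2, an interferon-inducible GTPase that attacks the membranes around intracellular pathogens, was lower in all 3 lines. It read 339.9, 374, 343 and 359 units in MYC cells without Dox and 64.8, 52.2, 40.6 and 58.7 with it, a change of −2.71 (SE 0.11, adjusted p = 7.78e-14). In VM cells Gbp2 read 488, 515, 444 and 501 without Dox and 40.6, 44.3, 36.5 and 41.2 with it, a change of −3.55 (SE 0.096, adjusted p = 1.72e-15). In VIM cells it read 119.6, 112, 115 and 112 without Dox and 6.94, 2.08, 11.8 and 4.04 with it, a change of −4.20 (SE 0.30, adjusted p = 2.77e-11), the largest among the members in that line. Ifit3 belongs to a family of proteins that hold back viral RNA. Ifit3 read 201, 231, 216 and 213 in MYC cells without Dox and 45.3, 25, 30.9 and 44.5 with it, a change of −2.57 (SE 0.15, adjusted p = 1.44e-11). It read 399, 522, 428 and 409 and 54.7, 33.2, 68.8 and 51.8 in VM cells, a change of −3.09 (SE 0.16, adjusted p = 7.35e-12), and 110.1, 140.5, 148 and 148 and 19.4, 31.9, 25.6 and 22.6 in VIM cells, a change of −2.42 (SE 0.16, adjusted p = 9e-12).

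Several of the other effectors were hardly present in VM and VIM cells. Ifit1, a neighbour of Ifit3 on chromosome 19, read 598, 652, 654 and 684 units in MYC cells without Dox and 178, 128, 113 and 169 with it, a change of −2.15 (SE 0.10, adjusted p = 1.14e-12). In VM cells Ifit1 read 6.17, 16.3, 15.5 and 12.2 without Dox and 0 in all 4 libraries with it, at least 4.76-fold lower. It passed the filter on low values in VM cells only through the libraries without Dox and was no longer tested when any of those 4 was left out. In VIM cells it read 9.49, 13.4, 9.18 and 4.98 without Dox and was at or under the floor with it, at least 3.82-fold lower. Oasl2, a relative of the oligoadenylate synthetases, was at 194 to 251 units without and 26 to 44 with Dox in MYC cells, and was at least 4.8-fold and 7.97-fold lower in VM and VIM cells. The oligoadenylate synthetases Oas1a and Oas2 and the GTPase Mx1 were at or under the floor in every VM and VIM library, so the effect of Dox on them could be read in MYC cells only. There Oas1a fell, with 102, 111, 129 and 124 units without Dox and 29.6, 17.4, 28.7 and 48.2 with it. Mx2 fell as well, with 38.7, 40.8, 71.2 and 46.2 and 3.91, 2.17, 7.04 and 4.72, and Mx1 and Oas2 were at least 4.93-fold and 5.48-fold lower. Rsad2 (viperin) fell from 318, 347, 377 and 339.5 to 96.7, 67.4, 65 and 82.3 units in MYC cells and read 6.2 to 7.94 without Dox in VM and 0 to 1.9 in VIM cells. Bst2 (tetherin), which holds budding virus at the cell surface, was the effector that passed in no line, with 926 ± 47.6 units without and 770 ± 31.2 with Dox in MYC cells (SD, n = 4) and changes of −0.27, 0.23 and −0.14 in MYC, VM and VIM cells.

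Of the 7 other interferon-stimulated genes, 7 were lower in MYC cells, 7 in VM cells and 4 in VIM cells. Parp14, an ADP-ribosyltransferase, read 764, 942, 885 and 882 units in MYC cells without Dox and 156, 157, 126 and 173 with it, a change of −2.50 (SE 0.079, adjusted p = 2.43e-15). Its changes were −2.95 (SE 0.099) in VM cells and −2.40 (SE 0.092) in VIM cells, where it read 317, 328, 329 and 330.2 without and 55.5, 62.4, 59.1 and 67.9 with Dox. Parp9 and Dtx3l act as one complex and are transcribed from a shared promoter region in opposite directions, with exons that overlap. Parp9 was lower in all 3 lines, with changes of −1.65 (SE 0.056), −2.02 (SE 0.11) and −1.35 (SE 0.053). Dtx3l changed by −1.02 (SE 0.047) and −1.13 (SE 0.12) in MYC and VM cells and by −0.29 (SE 0.056) in VIM cells, which did not pass, and its call in MYC cells sits at the threshold and was lost without Dox replicate 2 or without no Dox replicate 4. Rtp4, a chaperone for receptor transport, read 159, 196, 201 and 182 units in MYC cells without Dox and 27.4, 30.4, 11.9 and 29.4 with it, a change of −2.93 (SE 0.21, adjusted p = 3.29e-10). Ifi44 read 76.8, 119, 119.8 and 100.1 and 18.4, 9.79, 12.5 and 22.5 there, a change of −2.69 (SE 0.21, adjusted p = 1.3e-09), and was at least 3.19-fold lower in VM and 4.56-fold lower in VIM cells. Xaf1 and Ifi35 passed in MYC and VM cells, and in VIM cells their changes were −0.72 (SE 0.21) and −0.65 (SE 0.099).

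Of the 6 transcription factors 4 were lower in MYC, 4 in VM and 3 in VIM cells. Stat2 read 406, 500.1, 468 and 451 units in MYC cells without Dox and 138, 129, 136 and 125 with it, a change of −1.78 (SE 0.064, adjusted p = 1.72e-14), and it changed by −1.73 (SE 0.10) in VM and −1.21 (SE 0.078) in VIM cells. Irf9, its partner at the ISRE, passed in MYC (−1.39, SE 0.06) and VM cells (−1.25, SE 0.085) and changed by −0.77 (SE 0.1) in VIM cells. Irf1, the factor that carries much of the interferon-gamma response, changed by −1.11 (SE 0.041), −1.37 (SE 0.051) and −1.002 (SE 0.048) in MYC, VM and VIM cells. In VIM cells Irf1 sat at the threshold, at 766, 727, 754 and 757 units without and 387, 383, 349.7 and 379 with Dox, and lost its call without Dox replicate 3 or without either of no Dox replicates 1 and 4. Irf7, the amplifier of type I interferon, fell from 128, 209, 197 and 177 to 21.2, 26.1, 20.1 and 26.2 units in MYC cells, a change of −2.86 (SE 0.15, adjusted p = 2.37e-12). It was scarce in VM and VIM cells, at 5.29 to 10.1 and 8.29 to 15.2 units without Dox, and lost its call in VM cells without Dox replicate 3. Irf3, which is present before any stimulus and is activated by phosphorylation, changed by −0.26, 0.09 and −0.17, and Irf5 by −0.98, −0.79 and −0.85, none of which passed. Exons of Irf3, Irf5, Irf7 and Irf9 overlap those of neighbouring genes, and the strand setting of the authors' counting is not given in the sources used here, so reads of such neighbours may enter these rows.

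**Figure D2:**
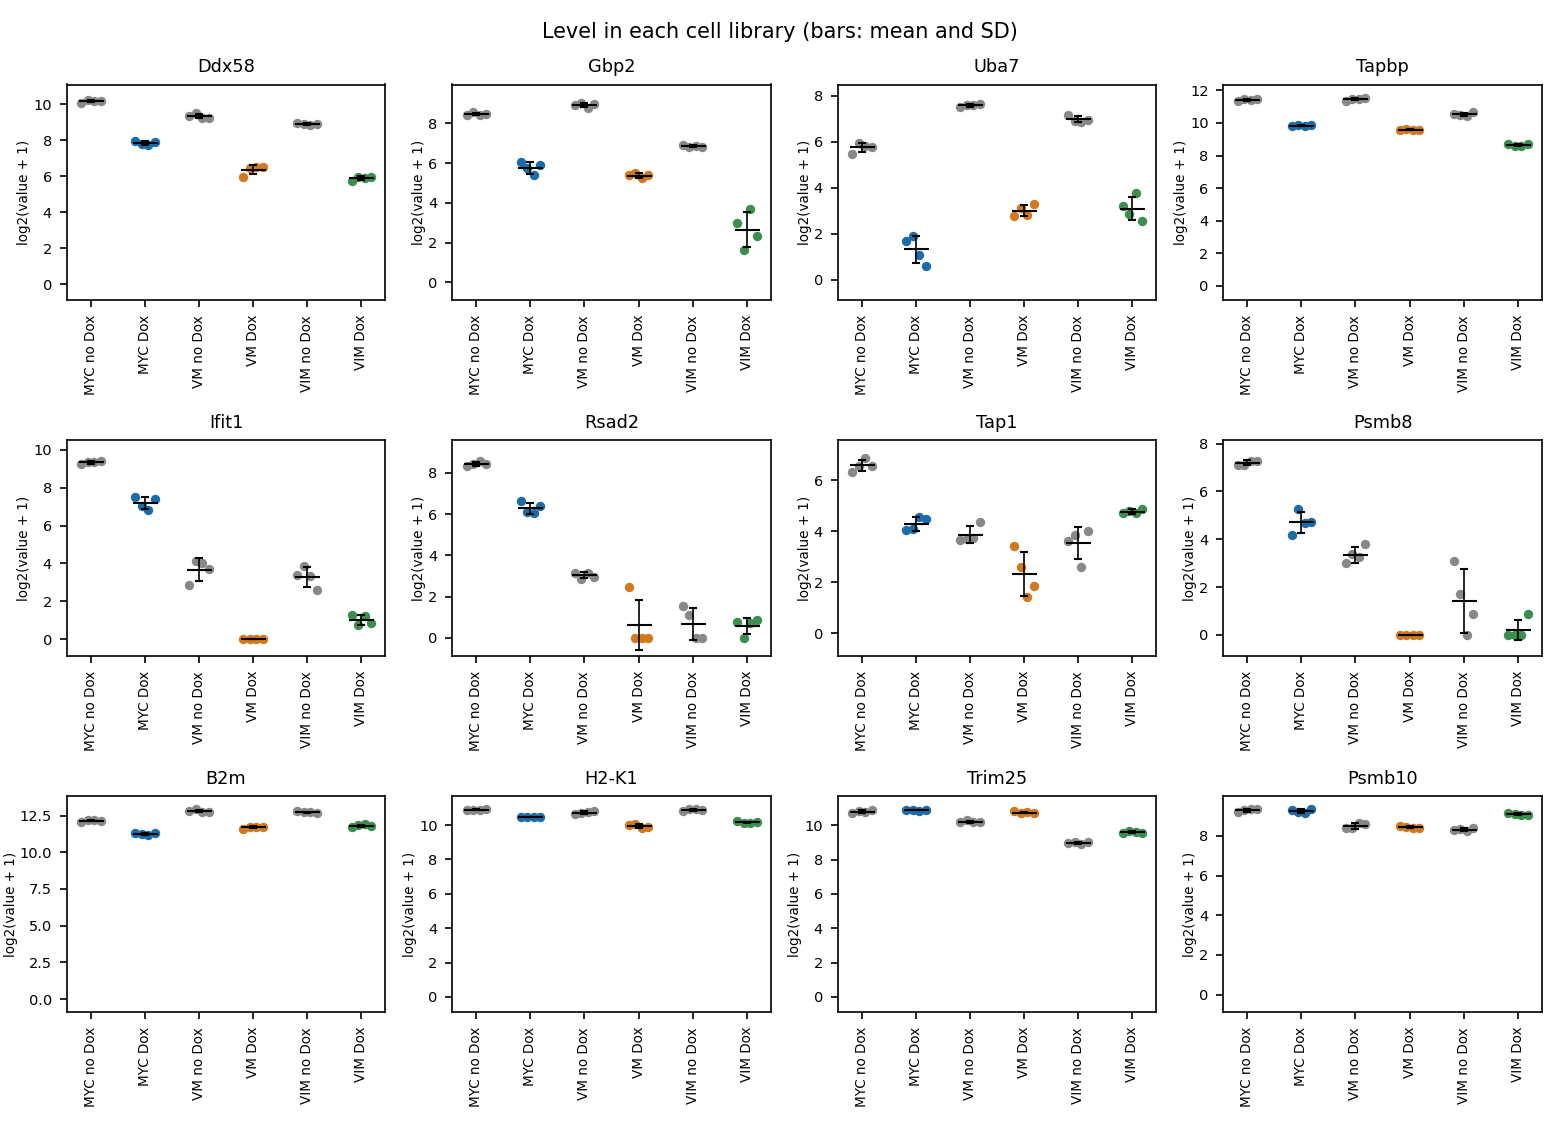
Level of 12 members in each of the 24 cell libraries, as log2(value + 1) on the y axis, by line and Dox state on the x axis. Points are libraries (grey without Dox, coloured with Dox) and black bars give the mean and SD of 4 libraries. Ddx58, Gbp2, Uba7 and Tapbp step down with Dox in all 3 lines, Ifit1, Rsad2 and Psmb8 are highest in MYC cells, and Tap1 in VIM cells steps up.

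The ISRE is shown for members that were lower in several lines and for members that were not. Promoter sequence from RefSeq (GRCm38.p6), from 250 bases before to 50 bases after the annotated start, was matched by symbol for 38 of the 52 members. The letters GAAANNGAAA, read on either strand, occurred in 14 of the 38 (36.8%) and in 1079 of 27025 genes with a promoter in the table (3.99%). Of the 13 matched members that were lower in all 3 lines 7 held it, against 2 of 10 lower in 2 lines, 3 of 6 lower in 1 line and 2 of 9 lower in none. The GAS letters TTCNNNGAA occurred in 6 of 38 members (15.8%) and 9.55% of all genes, and 1 member has an ISRE that overlaps a GAS. The E-box CACGTG, to which MYC can bind, occurred in 2 of 38 members (5.26%), Psmb10 and Trim25, and 8.09% of all genes. A match to these letters is a description of the sequence and was not tested for binding. The 150 bases before the start of 7 members are printed 5′ to 3′ on the strand of the gene, with the ISRE, on either strand, in capitals. Isg15 (chr4:156200819-156200968, minus strand), Ifit1 (chr19:34640739-34640888, plus), Ifit3 (chr19:34583379-34583528, plus) and Gbp2 (chr3:142620513-142620662, plus) were lower in all 3 lines. Rsad2 (chr12:26456453-26456602, minus) was lower in 2, B2m (chr2:122147537-122147686, plus) in 1 and Bst2 (chr8:71537473-71537622, minus) in none.
Isg15: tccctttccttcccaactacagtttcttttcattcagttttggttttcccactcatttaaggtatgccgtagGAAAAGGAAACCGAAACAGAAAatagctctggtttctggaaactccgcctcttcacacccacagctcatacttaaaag
Ifit1: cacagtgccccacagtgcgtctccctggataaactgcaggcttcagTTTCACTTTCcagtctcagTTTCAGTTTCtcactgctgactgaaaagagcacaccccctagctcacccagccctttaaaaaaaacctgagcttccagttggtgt
Ifit3: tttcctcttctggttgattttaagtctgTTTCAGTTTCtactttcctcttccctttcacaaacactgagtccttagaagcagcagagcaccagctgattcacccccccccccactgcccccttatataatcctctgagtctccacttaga
Gbp2: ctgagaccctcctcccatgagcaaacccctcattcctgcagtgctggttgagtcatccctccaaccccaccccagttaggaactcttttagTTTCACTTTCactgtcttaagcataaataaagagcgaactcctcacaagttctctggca
Rsad2: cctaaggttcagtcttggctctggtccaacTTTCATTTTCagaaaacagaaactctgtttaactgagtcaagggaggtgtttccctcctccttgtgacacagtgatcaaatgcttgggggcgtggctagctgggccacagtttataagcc
B2m: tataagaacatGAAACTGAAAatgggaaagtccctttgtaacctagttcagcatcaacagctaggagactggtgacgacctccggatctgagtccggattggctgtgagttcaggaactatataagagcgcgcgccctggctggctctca
Bst2: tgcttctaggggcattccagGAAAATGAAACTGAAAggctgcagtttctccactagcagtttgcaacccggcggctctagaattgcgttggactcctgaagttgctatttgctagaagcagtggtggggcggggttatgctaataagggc
Isg15 has 3 overlapping ISRE matches that start between −78 and −66, where −1 is the base before the start. Ifit1 has 2 and Bst2 has 2, and Ifit3 has 1 in these bases and a further one that starts at −156. The ISRE is thus present both in the promoter of Isg15, which was lower in all 3 lines, and in that of Bst2, which passed in none.

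In class I presentation, the fitted log2 changes of tapasin and the peptide transporter were larger than those of the class I molecules in MYC and VM cells. Tapbp (tapasin), which holds class I molecules to the peptide transporter, read 2611, 2823, 2707 and 2822 units in MYC cells without Dox and 910.2, 920, 893 and 926 with it, a change of −1.59 (SE 0.03, adjusted p = 4.32e-18). In VM cells it read 2634, 2805, 2806 and 2933 and 771, 794, 749 and 759, a change of −1.86 (SE 0.045, adjusted p = 6.06e-16). In VIM cells Tapbp read 1471, 1447, 1372 and 1617 and 421, 391, 388 and 418, a change of −1.86 (SE 0.05, adjusted p = 1.35e-18). These are among the best resolved changes of all members, since the libraries of a group differed by little. Tap2, a subunit of the transporter, read 238, 242, 234 and 239 without and 62.6, 63.6, 62.3 and 58.2 with Dox in MYC cells, a change of −1.93 (SE 0.073, adjusted p = 3.39e-14). Tap2 read 134, 114, 115 and 126 and 5.91, 12.8, 11 and 8.77 in VM cells, a change of −3.58 (SE 0.20, adjusted p = 1.89e-11), and changed by −2.52 (SE 0.26) in VIM cells. Tap1, the partner subunit, was lower in 2 lines and higher in the other. It fell from 78.7, 93.4, 115 and 93.6 to 15.7, 15.8, 22.8 and 21.5 units in MYC cells, a change of −2.28 (SE 0.15, adjusted p = 1.69e-10), and in VM cells it read 11.5, 12, 12.4 and 19.8 without and 9.61, 5.11, 1.7 and 2.63 with Dox. The call in VM cells was lost with a pseudocount of 10, with a filter at a mean of 10 units and after quantile normalization. In VIM cells Tap1 rose from 11.4, 13.4, 5.1 and 14.9 to 25, 27, 24.9 and 28.3, a change of 1.25 (SE 0.27, adjusted p = 0.000268), a call that was lost without no Dox replicate 3 and with a pseudocount of 10. Exons of Tap1 and Psmb9 overlap on opposite strands.

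The class I molecules themselves stayed abundant. B2m, the light chain, read 7299, 7802, 6929 and 6823 units in VM cells without Dox and 3131, 3378, 3449 and 3409 with it, a change of −1.11 (SE 0.05, adjusted p = 8.91e-13), and changed by −0.88 (SE 0.031) and −0.92 (SE 0.035) in MYC and VIM cells, which did not pass the size threshold. The heavy chain H2-D1 passed in VM (−1.19, SE 0.053) and VIM cells (−1.07, SE 0.039), at 1728 ± 55 units without and 825 ± 37.4 with Dox in VIM cells (SD, n = 4), and changed by −0.94 (SE 0.029) in MYC cells. H2-K1 passed in none, with changes of −0.44 (SE 0.026), −0.78 (SE 0.055) and −0.72 (SE 0.036). After trimmed mean rescaling B2m and H2-D1 lost their calls in VM cells, and H2-D1 lost its call in VIM cells. For B2m, H2-D1 and H2-K1 the libraries with and without Dox did not overlap in any line. H2-K1 and H2-D1 are closely related in sequence, so reads that fit both may have been divided between them. Nlrc5, the regulator of class I genes, changed by −0.72 (SE 0.099) in MYC cells and was at 2.65 to 5.43 units without Dox in VM cells and 3.06 to 5.57 in VIM cells.

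Of the immunoproteasome, which cuts peptides that suit class I molecules, Psmb8 and Psmb9 were lower in MYC and VM cells. Psmb8 read 136, 139, 153 and 156 units in MYC cells without Dox and 17.3, 37.5, 24.4 and 25.7 with it, a change of −2.48 (SE 0.17, adjusted p = 1.25e-10). In VM cells Psmb8 read 7.05, 9.31, 8.53 and 12.9 without Dox and 0 in all 4 libraries with it, at least 3.59-fold lower. As for Ifit1, it passed the filter only through the libraries without Dox and was not tested when any of those 4 was left out, and its call was also lost with a pseudocount of 10. In VIM cells it was close to the floor with or without Dox. Psmb10, the other interferon-inducible subunit, read 628 ± 32.3 without and 609 ± 38.7 with Dox in MYC cells (SD, n = 4) and did not pass in any line. The activator subunits Psme1 and Psme2 changed by −0.46 and −0.59 in MYC, −0.98 and −1.02 in VM, and −0.75 and −0.85 in VIM cells, and only Psme2 in VM cells passed, a call lost without Dox replicates 2 or 4 or without no Dox replicate 2. Psmb5, Psmb6 and Psmb7, the constitutive subunits that these replace, are outside the 52 genes and changed by 0.16, 0.10 and 0.24 in MYC cells.

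Class II genes were scarcely present in the cells. Ciita, H2-Aa, H2-Ab1 and H2-Eb1 were under 6 units in all 24 libraries. Cd74, the invariant chain of class II molecules, read 35.4, 44.7, 39.9 and 36.5 units in MYC cells without Dox and 4.47, 10.3, 1.62 and 9.96 with it, a change of −2.62 (SE 0.34, adjusted p = 1.4e-06). It read 46.7, 42.3, 46.5 and 55.5 and 11.8, 10.2, 14.4 and 12.3 in VM cells, a change of −1.89 (SE 0.18, adjusted p = 4.11e-08), and was at 0 to 4.75 units without Dox in VIM cells. Of 16 leukocyte markers Itgax, Emr1 and Nkg7 were at 0 in all cell libraries and 7 to 9 of 16 were at 0 in each cell group. Their summed level, mostly Csf1r, was 445 to 475 units without and 218.6 to 255.7 with Dox in MYC cells, 946 to 1013 and 364 to 408 in VM cells, and 371 to 446 and 287 to 315 in VIM cells, and its part in the member values was not tested. The summed level of 8 fibroblast markers was 992 to 1180 units without and 297 to 309 with Dox in MYC cells, 631 to 710 and 87.4 to 112 in VM cells, and 139.8 to 180.0 and 25 to 36.1 in VIM cells, and its part was not tested either. This sum was mostly Col1a2 in VM cells (mean 650 units without Dox) and mostly Col1a2 and Col1a1 in VIM cells (97.4 and 59.5 without Dox). Without Dox, 4 of the 8 fibroblast markers were at or under the floor in all libraries of VM cells, and 4 in VIM cells.

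Other genes of the pathway were counted in the same way. Of 72 further genes of the pathway, 69 were in the table, and 24 of the 66 tested in MYC cells were lower with Dox, as were 26 of 59 in VM cells, where 3 were higher, and 13 of 57 in VIM cells, where 2 were higher. These are 36.4%, 44.1% and 22.8%, against 15%, 18.9% and 16.6% of all genes, so the share in VIM cells lay near that of all genes. The 12 lower in all 3 lines were Gbp7, Igtp, Irgm1 and Irgm2 (interferon-inducible GTPases), H2-T23 (a non-classical class I gene), Trim21, Parp12, Samd9l, Lgals9, the RNA sensor Tlr3, the kinase Ikbke and the receptor chain Il10rb. Igtp read 291, 362, 309.6 and 319 units without and 72.7, 64.2, 66.6 and 77.6 with Dox in MYC cells, a change of −2.17 (SE 0.083, adjusted p = 3.54e-14), and changed by −2.93 in VM and −2.64 in VIM cells. The receptor chains Ifnar1 and Ifngr1 stayed present, at 1463 to 1478 and 1216 to 1337 units with Dox in MYC cells against 2616 to 2721 and 2179 to 2364 without. Of the interferons themselves, Ifng was at 0 in every cell library and Ifnb1 did not exceed 1.09 units, so neither was detectable at this depth.

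The lines also differed in level without Dox. In 36 of the 52 members every VM and VIM library without Dox lay under every MYC library without Dox, which was so for 29% of the 16091 genes compared. Rsad2, at 318 to 377 units in MYC cells without Dox, was at 6.2 to 7.94 in VM and 0 to 1.9 in VIM cells. Uba7 and B2m, picked after their values were seen, were lowest in MYC cells, with 44 to 61.2 units in MYC, 181 to 201 in VM and 114 to 141 in VIM cells for Uba7, and 4371 to 4641, 6823 to 7802 and 6574 to 7103 for B2m. Ddx58 was highest in MYC cells, next in VM and lowest in VIM cells, with no overlap between the lines.

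The difference between the lines in their response to Dox was tested itself, in 1 fit over the 6 cell groups, where a positive value means a change that was higher in the line named first. Between VIM and VM cells 7 of 52 members differed, against 6.42% of 16092 genes, and all 7 were less reduced or increased in VIM cells (0 went the other way by limma, with 4 at an unadjusted p under 0.05, and voom was not run for this contrast). Tap1 differed most, by 2.79 (SE 0.45, adjusted p = 1.53e-05), followed by Rsad2 (2.35, SE 0.56), Psmb8 (2.15, SE 0.56) and Gbp3 (1.93, SE 0.39). Rsad2 and Psmb8 were at or near the floor in VIM cells without Dox, so a fall could not be measured there, and the calls of Rsad2, Psmb8, Ifit1 and Xaf1 were lost with a pseudocount of 10. Gbp3 read 18.5, 24, 24.8 and 32.7 without and 3.69, 3.4, 3.4 and 4.39 with Dox in VM cells, and 4.75, 6.69, 9.18 and 8.29 and 6.94, 6.93, 5.25 and 1.62 in VIM cells. Between VM and MYC cells 11 differed (8.53% of all genes), 8 upward and 3 downward, and between VIM and MYC cells 16 differed (8.81%), 14 upward and 2 downward. Among these Mx1, Mx2, Oas1a and Oas2 were under 2 units in every VM and VIM library, with or without Dox. A fall could therefore not be measured for them in VM and VIM cells. Rsad2, Usp18 and Cd74 were at or near the floor in VIM cells without Dox, so little or no fall could be measured for them there. Of the better expressed members, Tap2 was more reduced in VM than in MYC cells (−1.65, SE 0.27, adjusted p = 1.25e-05) and Gbp2 more in VIM than in MYC cells (−1.49, SE 0.33, adjusted p = 0.000577), and both lost this call with a pseudocount of 10 and after quantile normalization. Oasl1 read 437, 489.6, 467 and 491 without and 150.4, 135, 125 and 169 with Dox in MYC cells but 44.1, 39.2, 41.9 and 51.6 and 70.9, 51.9, 79.8 and 60.5 in VM cells, a difference of 2.26 (SE 0.37, adjusted p = 1.35e-05). The differences of Isg15 between VIM and MYC cells (−1.41) and of Ifit1 between VM and MYC cells (−1.53) turned positive with a pseudocount of 10, so their direction depends on how values near 0 are treated.

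In the tissues the members were compared between tumours and normal kidney, with the mouse as the replicate, so the 2 MYC libraries of 1 mouse were averaged. Of 52 members, 12 were lower and 5 higher in MYC tumours, where 17.7% and 19.4% of 16491 genes were lower and higher. In VM tumours 37 were lower and 2 higher, against 22.5% and 17.3% of 16521 genes. In VIM tumours 18 were lower and 5 higher, against 20.7% and 18.9% of 16569 genes. The median log2 difference of the members was −0.20, −1.84 and −0.61 in MYC, VM and VIM tumours, where all genes had medians of 0.12, −0.05 and 0.01. The 3 comparisons share the same 5 kidneys. Against the B6 kidneys alone 8, 21 and 14 members were lower in MYC, VM and VIM tumours, and against the KT kidneys alone 8, 29 and 18. MYC tumour replicate 3 read lower than replicate 2 of the same mouse for most members, and without it 6 members were lower in MYC tumours, since H2-Aa, H2-Eb1, Isg15, Oas2, Uba7 and Usp18 lost their call. In whole tissue, fewer cells of a type and less RNA per cell cannot be told apart.

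**Figure D3:**
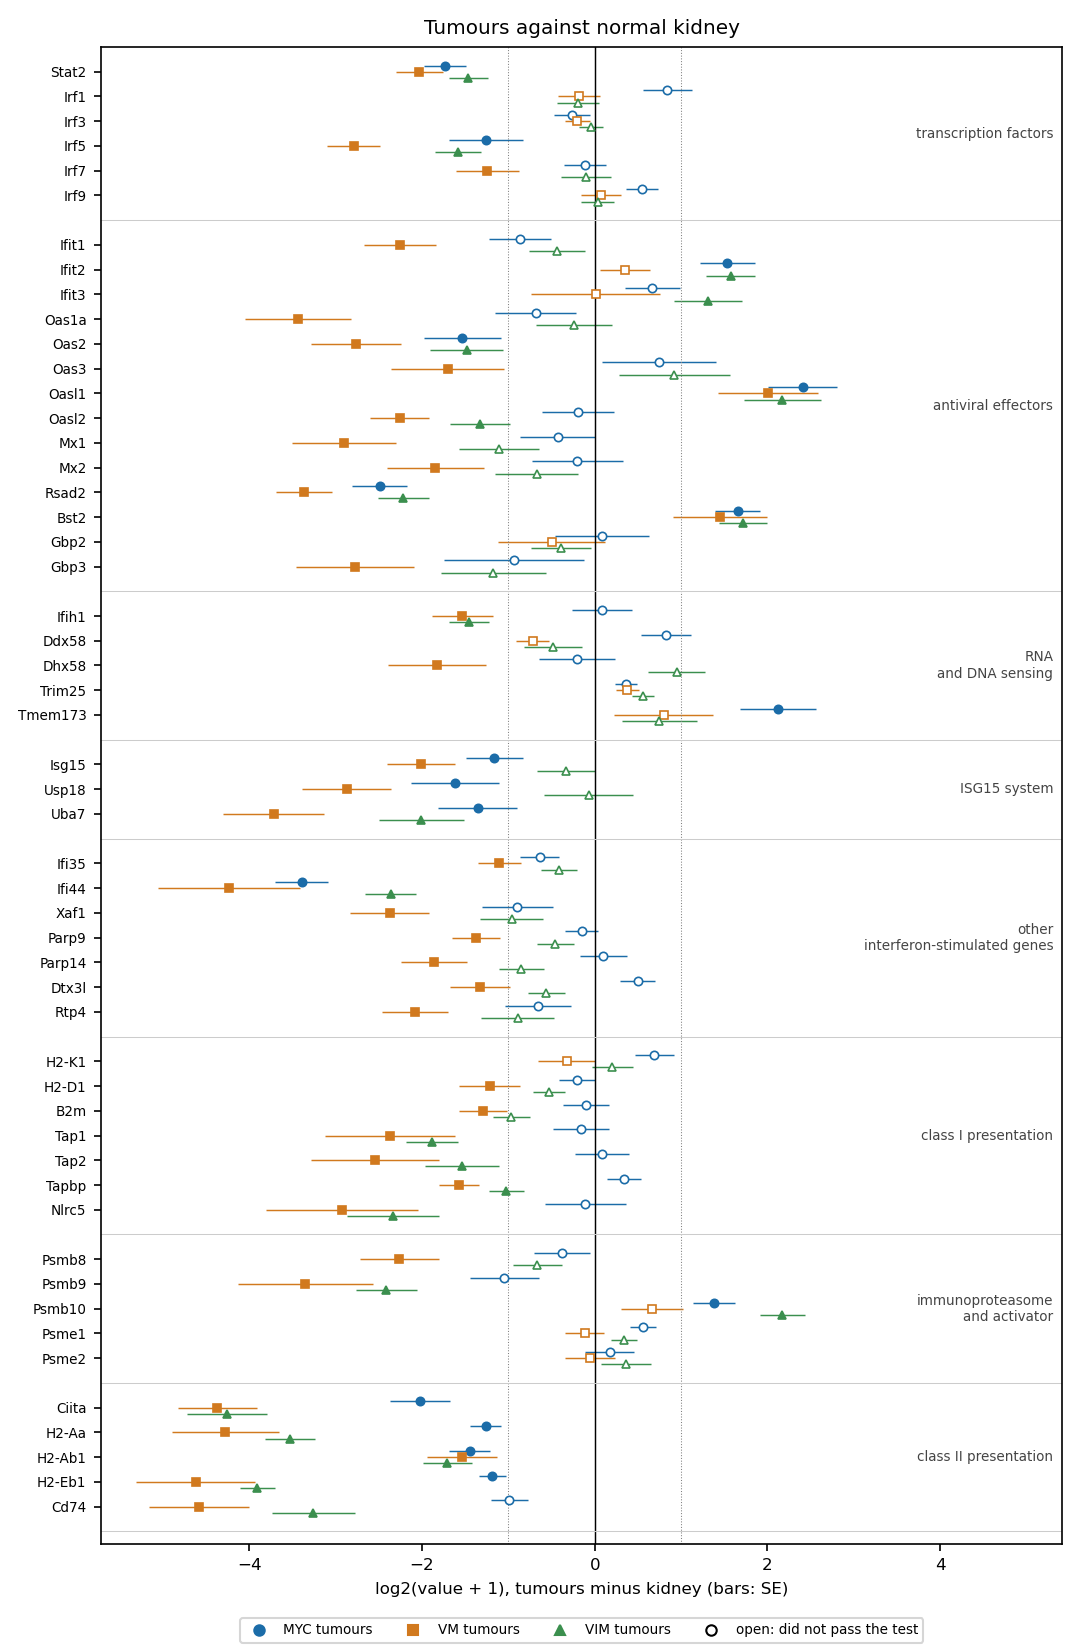
Difference of each member between tumours and normal kidney, on the x axis as log2(value + 1) in tumours minus kidney, with genes grouped by role on the y axis. Points are the fitted differences in MYC (circles), VM (squares) and VIM tumours (triangles), bars are standard errors, and open points did not pass the test. Ciita, H2-Aa, H2-Eb1 and Cd74 lie farthest left in VM and VIM tumours, and Oasl1 and Bst2 lie right of 1 in all 3.

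Class II presentation was lower in the tumours of every genotype, for 4 of its 5 genes in MYC and all 5 in VM and VIM tumours. Ciita, the master regulator of class II genes, read 96.9, 71.5, 132, 119 and 134 units in the 5 kidneys, 27.1, 47.8 and 1.41 in the MYC, 9.32, 3.09 and 2.47 in the VM and 5.65, 8.77 and 1.84 in the VIM tumours. All 9 tumour libraries lay under all kidneys, and the log2 difference was −2.02 (SE 0.34, adjusted p = 0.00164) in MYC, −4.37 (SE 0.46, adjusted p = 3.46e-05) in VM and −4.26 (SE 0.46, adjusted p = 5.54e-05) in VIM tumours. H2-Aa, a class II chain, read 2085, 1642, 2387, 2269 and 2304 in kidney, 992, 1420 and 151 in MYC, 446, 38.1 and 74 in VM and 141, 331 and 130.3 in VIM tumours. Its difference was −1.26 (SE 0.18), −4.28 (SE 0.62) and −3.53 (SE 0.29) in that order, and between VM and MYC tumours it was −3.01 (SE 0.73, adjusted p = 0.0506), which did not pass. H2-Eb1, a further chain, read 1804, 1480, 1863, 1761 and 2008 in kidney, 870.3, 1316 and 81.9 in MYC, 368, 27.8 and 34.5 in VM and 126, 152 and 84.4 in VIM tumours, with differences of −4.62 (SE 0.69, adjusted p = 0.000328) in VM and −3.91 (SE 0.20, adjusted p = 1.52e-06) in VIM tumours. Cd74 read 4171, 3215, 5352, 4878 and 5059 in kidney, 2503, 3668 and 373 in MYC, 695, 77.3 and 118 in VM and 505, 1124 and 178 in VIM tumours, and it passed in VM (−4.58, SE 0.58) and VIM tumours (−3.26, SE 0.48). H2-Ab1 was lower in all 3, with differences of −1.45 (SE 0.24), −1.54 (SE 0.41) and −1.70 (SE 0.29), and its exons overlap those of H2-Aa on the opposite strand. In VM tumours H2-Ab1 lost its call against the B6 or the KT kidneys alone.

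Marker genes of other cells moved beside the class II genes, and their part in the result was not tested. The summed level of the 16 leukocyte markers was 1553 to 2596 units in kidney, 3547 to 16270 in MYC, 2368 to 8053 in VM and 8070 to 14680 in VIM tumours. Lyz2 alone gave up to 11300, 5539 and 11380 of these units, and the median log2 difference over the 16 markers was 0.19, −1.44 and −0.74 in MYC, VM and VIM tumours. With markers at the floor set to their bound these medians were 0.19, −0.48 and −0.35. The macrophage markers Cd68 (27.7 to 43 in kidney, 281 to 716, 342 to 707 and 559.9 to 1571 in MYC, VM and VIM tumours) and Lyz2 (267 to 455, 1610 to 11300, 1325 to 5539 and 4851 to 11380) were above kidney in every tumour library. Csf1r overlapped with kidney, at 436 to 1498 in kidney and 929 to 2427, 448 to 1308 and 593 to 836 in the tumours. Emr1, at 53.6 to 111 in kidney, overlapped in VM tumours (46.9 to 230.4) but not in MYC (155.4 to 790.1) or VIM tumours (225.8 to 314.5). The myeloid marker Itgam, at 4.38 to 25.3 in kidney, was above kidney in every tumour library (53.7 to 356.3, 41.2 to 113.4 and 89.95 to 431.1). The pan-leukocyte gene Ptprc was at 216 to 346 in kidney and 77.7 to 424, 28.9 to 132 and 93.6 to 245 in the tumours, and Itgax, a dendritic cell marker, at 49.6 to 83 and 14.1 to 174, 21.3 to 70.1 and 5.51 to 287. In VM tumours 7 of 16 leukocyte markers were lower than in kidney and 3 higher, in VIM tumours 6 and 5, and in MYC tumours 0 and 4. Cd3e, Cd3g and Ncr1 were at 0 in all VIM tumours. In all VM tumours Cd3e and Cd3g were at or under the floor as well, and Ncr1 was at or under it in every tissue library. Of 8 renal tubule markers 6, 6 and 7 were lower in MYC, VM and VIM tumours, and 1, Pax8, was higher in each. Pax8 averaged 1083 units in kidney and 3114, 2415 and 3231 in MYC, VM and VIM tumours. The sums over the 8 markers were 208100 to 290700 units in kidney and 9663 to 25840 in the tumours. Slc34a1 and Umod gave most of the kidney sum. Cdh16 averaged 19800 units in kidney and 12170, 11530 and 9063 in MYC, VM and VIM tumours. Endothelial markers were lower too, 6, 5 and 6 of 6 in MYC, VM and VIM tumours.

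Antiviral effectors moved in both directions in the tumours, whereas the other interferon-stimulated genes that passed, 1 of 7 in MYC, 7 in VM and 1 in VIM tumours, were lower. Rsad2 was lower in all 3 groups, at 625, 333, 541, 707 and 554 units in kidney, 122, 122 and 24 in MYC, 45.3, 82.5 and 35.8 in VM and 77.2, 138 and 141 in VIM tumours, with differences of −2.49 (SE 0.32, adjusted p = 0.000395), −3.36 (SE 0.32, adjusted p = 2.05e-05) and −2.21 (SE 0.30, adjusted p = 0.000202). Ifi44 read 304, 210.2, 249, 269 and 333 in kidney, 33.6, 30.9 and 5.65 in MYC, 46.6, 26.8 and 1.23 in VM and 33.9, 56.4 and 71.6 in VIM tumours, with differences of −3.39 (SE 0.31), −4.24 (SE 0.82) and −2.36 (SE 0.29). Both had every tumour under every kidney. Oasl1 went the other way, at 32.9, 46.7, 40.2, 71.7 and 65.8 in kidney, 339, 181 and 237 in MYC, 198, 74.2 and 549 in VM and 318, 339.6 and 106 in VIM tumours, and was higher by 2.41 (SE 0.40, adjusted p = 0.0014), 2.01 (SE 0.58, adjusted p = 0.0141) and 2.17 (SE 0.45, adjusted p = 0.00255). Every tumour lay above every kidney for Oasl1. Bst2 was higher in MYC (1.65, SE 0.27) and VIM tumours (1.72, SE 0.28), and its call in VM tumours rests on replicate 1, at 2382, 435 and 354 units against 304, 178, 249, 246 and 366 in kidney. Without VM tumour replicate 1 Bst2 no longer passed in VM tumours, nor did Oasl1 without replicate 3, and neither Bst2 nor Oasl1 passed in VM tumours against the B6 or the KT kidneys alone. Ifit2 was higher in MYC and VIM tumours, at 636, 478 and 610.2 and 748, 518 and 573 against 140.1, 171, 178, 252 and 316 in kidney.

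**Figure D4:**
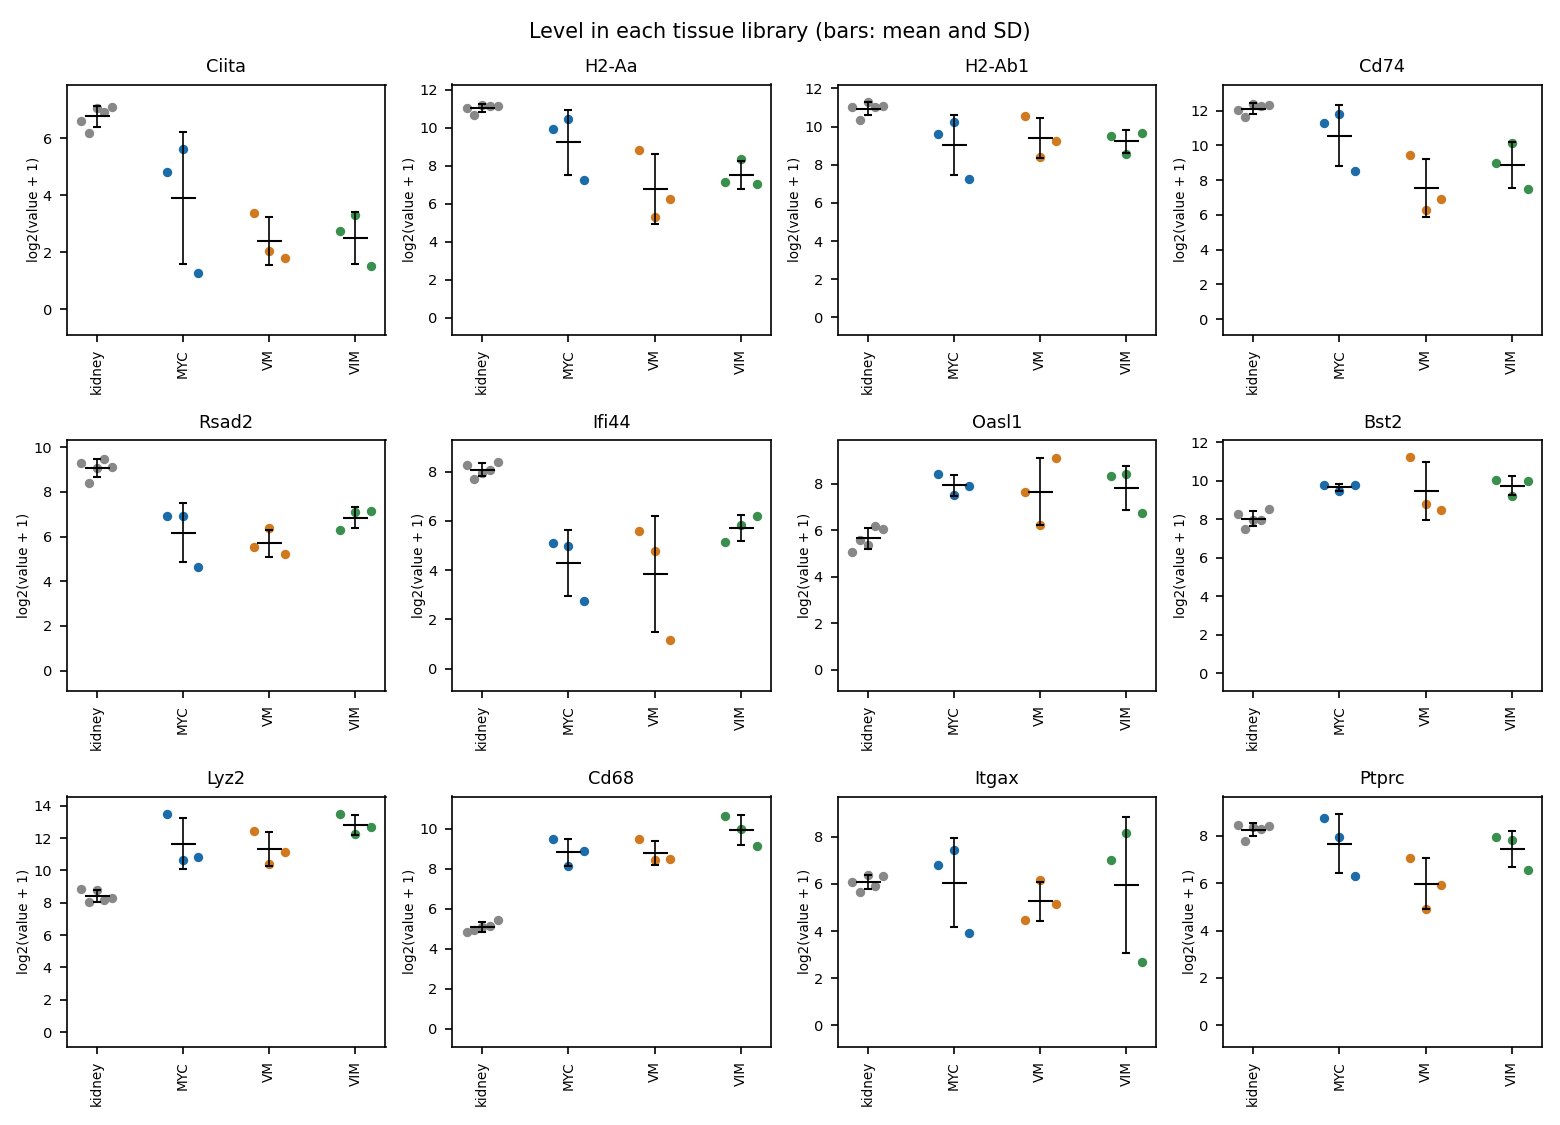
Level of 8 members and 4 leukocyte genes (Lyz2, Cd68, Itgax and Ptprc) in each of the 14 tissue libraries, as log2(value + 1) on the y axis, by tissue on the x axis. Points are libraries and black bars give the mean and SD over them, where the 3 MYC tumour libraries come from 2 mice. Ciita lies under the kidneys in all 9 tumour libraries while Lyz2 and Cd68 lie above them.

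The ISG15 system and the transcription factors were lower in part. Uba7 read 154, 189.8, 99.1, 120.5 and 233 units in kidney, 94.2, 61.7 and 11.3 in MYC, 34.6, 5.16 and 6.17 in VM and 32, 85.2 and 18.4 in VIM tumours, with differences of −1.36 (SE 0.46, adjusted p = 0.0353), −3.72 (SE 0.59, adjusted p = 0.000465) and −2.01 (SE 0.49, adjusted p = 0.00651). Isg15 and Usp18 were lower in MYC and VM tumours, while in VIM tumours they read 79.1, 42.6 and 42.2 and 32, 113 and 45.9 against 52.5 to 78.2 and 27.7 to 97.4 in kidney, which did not pass. Stat2 was lower in all 3, at 301, 333, 269, 313 and 463 in kidney, 90.5, 156 and 57.9 in MYC, 114, 75.3 and 59.2 in VM and 113, 125 and 119 in VIM tumours, with differences of −1.74 (SE 0.24), −2.03 (SE 0.27) and −1.46 (SE 0.22). Irf5, a factor used mainly by myeloid and B cells, was lower in all 3 as well, with differences of −1.26, −2.79 and −1.58. In MYC tumours Irf5, Uba7 and Usp18 lost their calls without a filter, without moderation, and against the B6 or the KT kidneys alone. Irf1 and Irf9 passed in none of the tumour groups. Tmem173 (STING) read 50.2, 56.9, 53.5, 26.1 and 87.3 in kidney and 231, 324 and 120.1 in MYC tumours, where it was higher by 2.13 (SE 0.44, adjusted p = 0.00423).

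Of the 7 class I genes, 6 were lower than kidney in VM and 4 in VIM tumours. In VM tumours H2-D1, Nlrc5, Tap1 and Tap2 lost their calls against the B6 or the KT kidneys alone, without a filter and without moderation. Tapbp read 1411, 1402, 1632, 1661 and 1895 units in kidney, 2510, 2053 and 1165 in MYC, 715, 638 and 335 in VM and 977, 886 and 554 in VIM tumours, with differences of 0.34 (SE 0.20), −1.57 (SE 0.24) and −1.02 (SE 0.20). B2m read 6234, 4807, 8715, 7651 and 8458 in kidney and 4403, 1978 and 2681 in VM tumours, a difference of −1.29 (SE 0.28, adjusted p = 0.00296). Psmb9 read 114, 68.6, 142, 129 and 135 in kidney and 15.1, 26.3 and 22 in VIM tumours, a difference of −2.41 (SE 0.35, adjusted p = 0.000344), whereas Psmb10 read 259.5, 182, 248, 207 and 291 in kidney and 1090, 719 and 1511 in VIM tumours, a difference of 2.17 (SE 0.26, adjusted p = 0.000101). The subunits of the immunoproteasome thus moved in opposite directions in VIM tumours.

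Compared with each other in 1 fit over the 4 tissue groups, few members passed between tumour genotypes. Between VM and MYC tumours 5 members were lower in VM tumours (2.31% of 17116 genes passed in either direction), namely Cd74 (−3.59, SE 0.79, adjusted p = 0.0379), H2-Eb1 (−3.43, SE 0.77, adjusted p = 0.04), Tapbp (−1.91, SE 0.33, adjusted p = 0.0118), Parp14 and Dtx3l. Of the members 0 were higher in VM tumours by limma, with 0 at an unadjusted p under 0.05. Between VIM and VM tumours 5 were higher in VIM tumours (2.65%), Ifit1, Ifit2, Dhx58, Usp18 and Oas1a, with 0 lower and 0 at an unadjusted p under 0.05 in that direction. Usp18 read 32, 113 and 45.9 units in VIM and 7.99, 11.3 and 3.7 in VM tumours, a difference of 2.80 (SE 0.62, adjusted p = 0.0321). Between VIM and MYC tumours Tapbp alone was lower (−1.36, SE 0.33, adjusted p = 0.0398), where 4.17% of all genes passed, and 0 were higher with 1 at an unadjusted p under 0.05. Voom was not run for these contrasts. These counts rest on few libraries, since 18 members passed between VM and MYC tumours without VM tumour replicate 1, 11 without MYC tumour replicate 3 and 0 without MYC tumour replicate 1. Between VIM and VM tumours 11 passed without VM tumour replicate 1 and 1 without VM tumour replicate 3, and between VIM and MYC tumours 7 passed without VIM tumour replicate 2. Leaving out any 1 kidney, which enters only through the shared spread, left 1 to 3 members between VM and MYC tumours, 1 to 5 between VIM and VM and 0 or 1 between VIM and MYC.

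Of the 18 members that were lower with Dox in all 3 lines, Stat2, Uba7 and Ifi44 were also lower than kidney in all 3 tumour groups. Of all 52 members, 10 were lower than kidney in all 3. The share of all genes that were lower in all 3 tumour groups was not counted, so neither count can be set against it. The 3 tumour comparisons also share the same kidneys. Uba7 lost its call in MYC tumours against the B6 or the KT kidneys alone. Ifit3 passed in VIM tumours in the other direction, at 872, 261 and 398 units against 145, 152, 147, 204 and 291 in kidney, a difference of 1.31 (SE 0.39, adjusted p = 0.0183), a call that was lost without VIM tumour replicate 1 and against the B6 or the KT kidneys alone. Cells with and without Dox and tumours with normal kidney are separate contrasts, the former within 1 line and the latter between tissues of different makeup. Among the 69 further pathway genes in the table, 9 were higher and 15 lower in MYC, 6 and 27 in VM, and 7 and 23 in VIM tumours, of 68 tested in each. The shares lower were 22.1%, 39.7% and 33.8%, against 17.7%, 22.5% and 20.7% of all genes, and the shares higher were 13.2%, 8.82% and 10.3%, under the 19.4%, 17.3% and 18.9% of all genes. Igtp was lower in all 3, at 414, 342, 544, 707 and 550.3 units in kidney, 197, 156 and 36.7 in MYC, 249, 58.8 and 24.7 in VM and 96, 96.5 and 101 in VIM tumours.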

How the data were processed

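RNA of 38 libraries was sequenced by the authors after stranded poly(A) selection. Per the paper's methods and the labels, reads were aligned to mm9 with MapSplice, and the alignment was profiled with Picard 1.64. The reads were sorted and indexed with SAMtools, filtered with UBU and estimated per gene with RSEM. The deposited values are signal, RSEM estimates scaled by the authors to a common upper quartile, so they are not counts, and 94.1 to 95.9% of values under 20 reads were whole reads within 0.02. All 52 members were taken by symbol, and the members, roles and gene lists were chosen with earlier results of these data known. Groups were compared with limma 3.58.1 (R 4.3.3) on log2(value + 1), with a trended prior, over genes above 0 in at least 4 cell or 2 tissue libraries. Fold changes on that scale understate those of low genes. Any member could be named, with values per library for up to 6 with the largest change among called members with a mean of at least 50 units and groups that do not overlap, and for the members of each role that passed most often. Other members with such values were picked after they were seen. Floors of 3 reads cover counting error only. On simulated data, 200 of 200 changed genes were recovered in VM cells and 193 of 200 in VM tumours. Among the other genes of these data, 1 was called in VM cells and 11 in VM tumours. Recovery close to the 2-fold threshold or to the floor was not tested separately. Alternatives were other pseudocounts and filters, trimmed mean and quantile scaling, voom, no moderation, kidneys by prefix, a replicate block and each library left out. Figures used Python 3.11.15 and matplotlib 3.10.9.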

Additional observations from a re-analysis of the deposited data

Results flagged for a closer look

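Of 257 pairs of a member and a group of 4 or 5 libraries with a mean of at least 10 units, 12 (4.67%) had 1 library far from the others by Dixon's test at the 95% level, which chance gives in about 1 group in 20. In the cells these were Irf3 at 593 units in VIM Dox replicate 4, Irf5 at 178 in VIM no Dox replicate 2, Ifit2 at 305 in VM Dox replicate 3, Ddx58 at 62.1 in VM Dox replicate 1, Isg15 at 71.7 in VM no Dox replicate 2, Rtp4 at 11.9 in MYC Dox replicate 3 and at 17.4 in VIM no Dox replicate 4, Tap1 at 19.8 in VM no Dox replicate 4, and Psme2 at 51.99 in VIM Dox replicate 2. In kidney, Psmb8 at 209 and Nlrc5 at 33.6 were low in replicate 2, and Gbp3 was high in replicate 5, at 1050 units against 126 to 222 in the other 4.

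The response to Dox differed between VIM and VM cells by the test of the difference itself for Tap1 (2.79), Rsad2 (2.35), Psmb8 (2.15), Gbp3 (1.93), Ifit1 (1.41), Tap2 (1.07) and Xaf1 (1.01), in log2 units of VIM minus VM. Between VM and MYC cells it differed upward for Dhx58 (2.83), Oas2 (2.50), Mx1 (2.37), Oasl1 (2.26), Mx2 (2.19), Oas1a (1.75), Irf7 (1.50) and Rtp4 (1.28), and downward for Tap2 (−1.65), Ifit1 (−1.53) and Isg15 (−1.31). Between VIM and MYC cells it differed upward for Tap1 (3.53), Mx2 (3.21), Dhx58 (2.99), Mx1 (2.70), Oas2 (2.69), Oas3 (2.28), Cd74 (2.12), Rsad2 (2.08), Gbp3 (1.98), Oas1a (1.96), Psmb9 (1.80), Usp18 (1.46), Xaf1 (1.38) and Oasl1 (1.28), and downward for Gbp2 (−1.49) and Isg15 (−1.41). Mx1, Mx2, Oas1a and Oas2 were at or near the floor in VM and VIM cells with or without Dox, so a fall could not be measured there. Rsad2, Psmb8, Usp18 and Cd74 were at or near the floor in VIM cells without Dox, with the same limit.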

How the results depend on the processing

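Over 214 results for named members, 3571 of 3879 alternative values kept direction and call, 306 kept direction and lost the call, and 2 reversed, both with a pseudocount of 10, namely the difference of Ifit1 between VM and MYC cells (0.94) and that of Isg15 between VIM and MYC cells (0.31). A pseudocount of 10 also gave 0 members higher in VIM cells, 4 that differed between VIM and VM cells (3 of them shared with the 7, and Cd74) and 3 that differed between VIM and VM tumours. Without a size threshold 1, 4 and 4 members were higher in MYC, VM and VIM cells, 31 lower in VIM cells and 11 higher in MYC tumours. Quantile normalization gave 2 higher in VM cells, 2 in VIM cells, 1 between VIM and VM tumours and 2 between VIM and MYC tumours, and trimmed mean scaling gave 3 between VIM and VM tumours. A mean of at least 10 units left 21 lower in VM cells, and all groups in 1 fit left 6 lower in MYC tumours. In VM tumours 1 was higher with pseudocounts of 0.1 or 10, without a filter, without moderation or with voom, and 0 against the B6 or the KT kidneys, and 21 were lower against the B6 kidneys. Leaving out 1 library at a time gave 0 to 0 higher and 36 to 38 lower in MYC cells, 0 to 0 and 30 to 33 in VM cells, 0 to 2 and 18 to 20 in VIM cells, 5 to 6 and 6 to 15 in MYC tumours, 1 to 3 and 29 to 37 in VM tumours, and 4 to 6 and 17 to 20 in VIM tumours. The responses that differed between lines numbered 6 to 10, 9 to 12 and 14 to 18 for VIM and VM, VM and MYC, and VIM and MYC cells, and the tumours 1 to 11, 0 to 18 and 0 to 7 in the same order. The cause of these changes was not tested.

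The replicate block gave the same 33 members lower in VM cells, 0 higher, 19 lower and 1 higher in VIM cells, and 7 that differed between VIM and VM cells. The numbers did not pair the libraries, since deviations of same-numbered libraries correlated from −0.307 to 0.108. In VM cells Ifit1 and Psmb8 were no longer tested when any 1 of the no Dox libraries was left out, because too few libraries were then above 0.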
